A study of Mus musculus with 6 samples.

Results

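The genes described here are 10 that belong to plasma cells and to the secretion of immunoglobulin A (IgA): Jchain, Mzb1, Pigr, Prdm1, Xbp1, Irf4, Tnfrsf17, Derl3, Pou2af1 and Cd79a. They were chosen by name, through every non-control probe that the array files give to 1 of them, out of 37008 genes with a probe. That gave 14 of 56605 probes, with 1 probe for each gene except Pigr and Irf4, which had 2 each, and Xbp1, which had 3. All 10 genes had a probe. Levels were compared in total RNA of common bile duct epithelium, taken from mice of the C57BL/6 strain that the labels name iFGF10. The DOX+ group held 3 samples from iFGF10 mice that drank water with 0.02% doxycycline for 5 days, and the DOX- group held 3 samples from mice that drank plain water for 5 days. Doxycycline turns on genes that were placed under tetracycline control, and FGF10 is a fibroblast growth factor that signals to epithelia. The sample descriptions of the DOX- mice carry names that start with WT and a pair of numbers, although their source names call them iFGF10 mice, so it is not settled whether the controls carried the construct or whether each sample was a pool. The promoter that drives the construct, and the age and sex of the mice, are not given in the sources used here. No mice without the construct that drank doxycycline were analysed here, so effects of the drug and of the induced gene cannot be told apart.

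Plasma cells are the antibody-secreting end stage of the B cell lineage. In the wall of the gut and of the bile ducts most of them make IgA, which leaves the cell as a dimer held together by the J chain. The polymeric immunoglobulin receptor, made by epithelial cells, binds this dimer at the base of the cell, carries it across and releases it into the lumen, so that RNA of plasma cells and RNA of duct epithelium both bear on IgA secretion.

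Levels are the log2 intensity of a probe minus the 75th percentile of its array, so that 0 marks a probe as bright as that percentile. The share of spots well above background was between 55.93% and 61.9% on the 6 arrays, with DOX- replicate 3 the lowest. DOX- replicate 3 also stood apart in some of its immune cell genes. The mean level of 4 pan-leukocyte markers was 0.24 there, whereas the other DOX- arrays read 2.23 and 2.26 and the DOX+ arrays 1.11 to 1.44. That fall was in Cd52, Coro1a and Laptm5. The remaining marker, Ptprc, read 1.88 there, beside 2.04 and 2.12 on the other DOX- arrays and 1.98 to 2.00 in DOX+. All 4 pan-leukocyte markers, and all 8 markers of duct epithelium, were well above background on all 6 arrays. The epithelial markers had mean levels of 3.52 to 3.89 in DOX+ and of 4.13 to 4.22 in DOX-. The 3 DOX+ arrays and DOX- replicate 1 lay in the first row of the slide, and the second row held DOX- replicates 2 and 3. The labels do not tie each sample to a separate animal, so a p-value refers to the spread among these samples, which may be partly technical.

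Among the 10 genes, the secretory genes Jchain and Mzb1 had higher levels on every DOX+ array than on any DOX- array, and the B cell coactivator gene Pou2af1 had lower levels on every DOX+ array. The receptor gene Pigr, the transcription factor genes Prdm1 and Xbp1 and the degradation gene Derl3 had overlapping groups. The other 3 genes, Irf4, Tnfrsf17 and Cd79a, were too dim to test. None of the 7 tested genes passed the threshold of 0.05 for limma's p adjusted over all genes, where 0.0386% of 20737 tested genes did. At an unadjusted p under 0.05 the count was 2 of 7, Mzb1 and Pou2af1, against 13.3% of all tested genes. Groups that did not overlap were seen in 3 of 7, where 21.0% of all tested genes had such groups, 10.1% higher and 10.9% lower in DOX+. Jchain and Mzb1 entered the test only through DOX+, the group in which they were higher, so their counts are no support, and among the 5 genes well above background on all 6 arrays 1 had groups that did not overlap. The mean was higher in DOX+ for 3 of the 7 and lower for 4, where 48.2% of all tested genes were higher and 51.8% lower. The median difference over the 7, DOX+ minus DOX-, was -0.01, as was the median over all tested genes. That median is the value of Pigr itself, counted among the 4 lower, on an A and G repeat probe described below. The other Pigr probe differed by 0.19, so the median and the split by sign depend on the probe chosen. In whole RNA of a tissue, fewer cells of a type and less RNA per cell cannot be told apart.

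**Figure D1:**
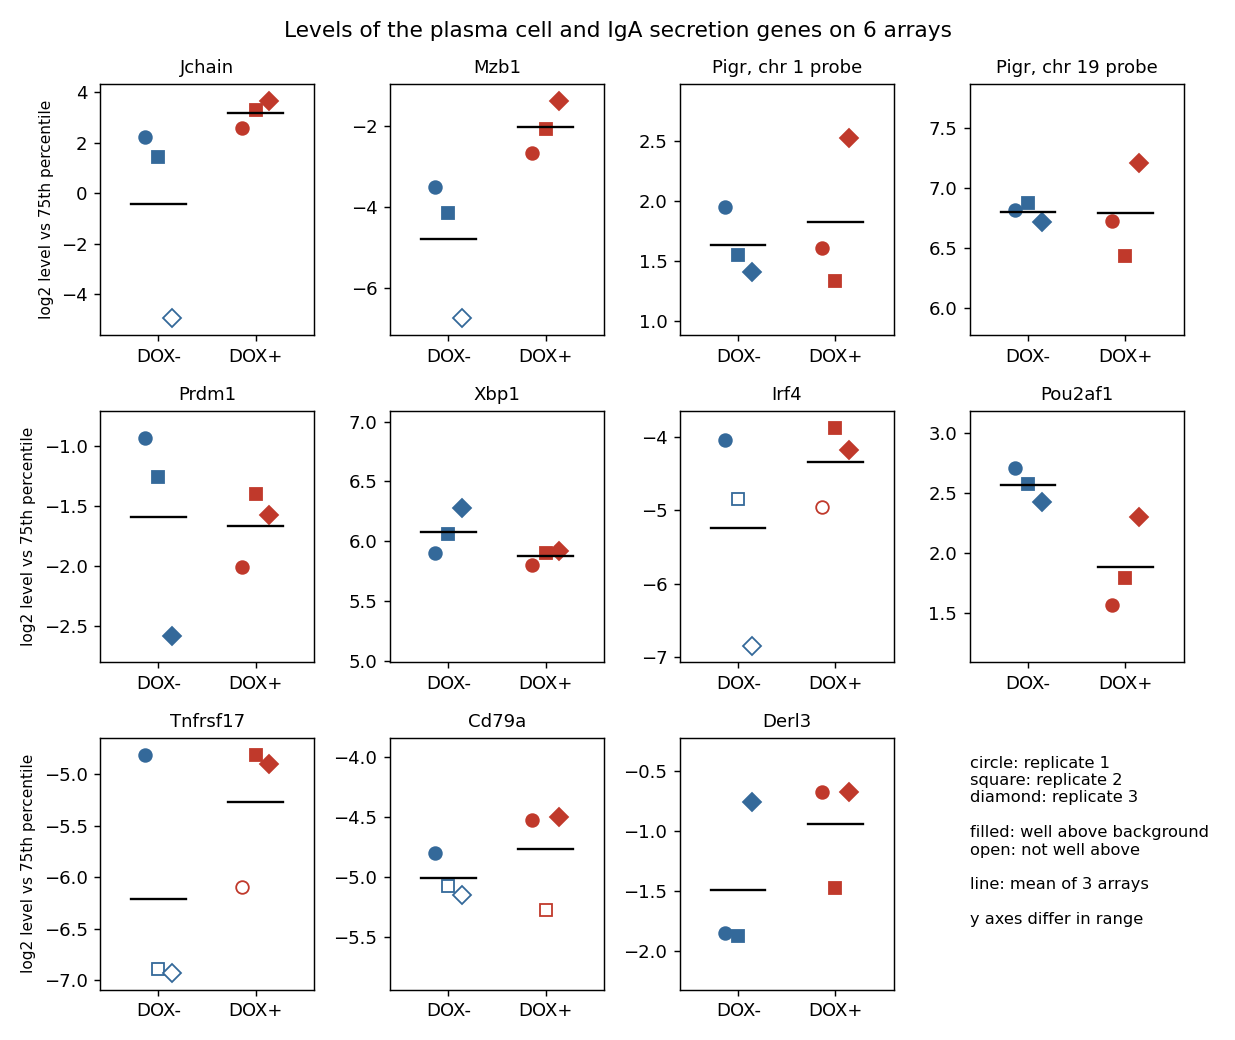
Log2 levels of the 10 genes on each of the 6 arrays, with 1 panel per gene and 2 panels for Pigr. Blue symbols are DOX- and red symbols DOX+, the symbol shape gives the replicate number, open symbols mark spots not well above background, and the line is the mean of 3 arrays. In the panels of Jchain, Mzb1, Irf4 and Prdm1 the lowest symbol is DOX- replicate 3.

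Jchain encodes the small joining chain of dimeric IgA and pentameric IgM (probe at chr5:88949919-88949978 of mm9, the build of the files). Its log2 level was 2.60, 3.28 and 3.67 on DOX+ replicates 1 to 3 and 2.21, 1.44 and -4.97 on DOX- replicates 1 to 3. The spot on DOX- replicate 3 had an intensity of 21.2 and was not well above background, whereas the other DOX- spots had intensities of 3793.2 and 2412.6. The groups did not overlap, but the step from DOX- replicate 1 to the lowest DOX+ array was small beside the gap within DOX-. The mean was 3.18 ± 0.54 (SD, n = 3) in DOX+ and -0.44 ± 3.94 (SD, n = 3) in DOX-. The difference of 3.63 had a standard error of 1.85 and a 95% confidence interval from -0.86 to 8.11, with a limma adjusted p of 0.447. Without DOX- replicate 3 it was 1.36, with an adjusted p of 0.299 by limma, and with slide row as a block, which rests the comparison on DOX- replicate 1 alone, it was 0.97. Over all alternatives its limma adjusted p lay between 0.297 and 0.969.

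Mzb1 encodes a chaperone of the endoplasmic reticulum that helps to assemble immunoglobulin in plasma cells and marginal zone B cells (chromosome 18). Its log2 level was -2.67, -2.09 and -1.39 in DOX+ and -3.51, -4.15 and -6.75 in DOX-. The groups did not overlap, and the DOX- replicate 3 spot, at an intensity of 6.2, was again the only one not well above background. The difference was 2.75 with a standard error of 0.86 and an interval from 0.67 to 4.83, and limma's p was 0.0175 before and 0.294 after adjustment. It was 1.78 without DOX- replicate 3, 1.46 with slide row as a block and 1.25 with normexp background correction. The limma adjusted p lay between 0.105 and 0.867 over all alternatives.

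Derl3 encodes a derlin of the endoplasmic reticulum that takes part in the degradation of misfolded proteins (chr10:75358606-75358665). Its level was -0.67, -1.47 and -0.67 in DOX+ and -1.85, -1.87 and -0.75 in DOX-. Here DOX- replicate 3 was the highest control, unlike for Jchain and Mzb1, and DOX+ replicate 2 fell among the controls. The difference of 0.55 had a standard error of 0.38 and a limma adjusted p of 0.560. It was 0.92 without DOX- replicate 3 and 0.91 with slide row as a block.

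The genes whose levels ran closest to Jchain over the 6 arrays were sought among 20736 genes, by the root mean square difference of log2 levels after subtracting each gene's own mean. The median of this measure over all those genes was 2.96. The nearest 5 were all on chromosome 12, and 4 of them carry immunoglobulin heavy chain names in the files. First, at 0.22, came the immunoglobulin heavy constant alpha region (chr12:114496985-114497044), which is the constant part of IgA itself. Its level was 6.51, 7.07 and 7.66 in DOX+ and 6.29, 5.63 and -0.49 in DOX-. As for Jchain, the groups did not overlap, DOX- replicate 1 came close to DOX+ replicate 1, and DOX- replicate 3 was far below the rest. Its difference was 3.27 with a standard error of 1.76 and a limma adjusted p of 0.467. The next were Igh-VJ558 at 0.35, the uncharacterised LOC102642252 at 0.37, heavy variable 1-64 at 0.73 and heavy variable V14-3 at 0.76. The search covered all arrays at once, and the fall on DOX- replicate 3 weighs most in it. The constant alpha region was well above background on all 6 arrays. The others of the 5 read -6.93, -6.71, -7.04 and -6.49 on DOX- replicate 3, where the lowest level well above background was -4.71. Like Jchain, they entered the test only through DOX+, so their nearness to Jchain is a description only.

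**Figure D2:**
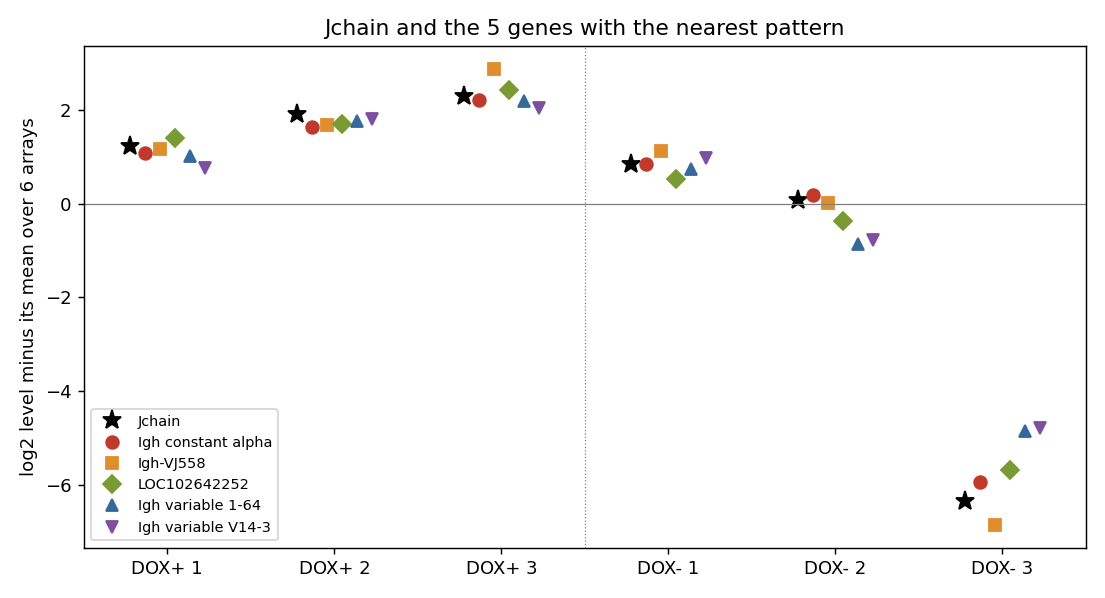
Log2 level minus the gene's own mean over 6 arrays, for Jchain (stars) and the 5 genes with the nearest pattern, on each DOX+ and DOX- array. All 6 genes lie far below 0 on DOX- replicate 3 and above 0 on the DOX+ arrays and on DOX- replicate 1.

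Probes of other immunoglobulin constant regions gave the isotypes beside IgA. By the descriptions in the files there were 21 constant region probes, several of them for the same gene, of which 14 passed the filter on dim probes. In 9 of the 14 the DOX+ levels all lay above the DOX- levels, where 10.7% of 31720 probes that passed the filter did so, and 13 of the 14 were lowest on DOX- replicate 3. Because 8 of the 14 passed the filter only through DOX+, the group in which they were higher, the count of 9 is a description only. Of the 6 probes well above background on all arrays, 4 had DOX+ levels wholly above the DOX- levels. In a limma fit over all these probes 1 of the 14 passed the threshold, against 0.0567% of all probes. The probe that passed was one of heavy constant gamma 2C, the IgG2c isotype of C57BL/6 mice. Its levels were -3.59, -2.36 and -2.01 in DOX+ and -7.12, -7.07 and -6.75 in DOX-. It too had passed the filter only through DOX+, so its call is a description only. It was well above background on all 3 DOX+ arrays and on no DOX- array. Counted against the lowest signal well above background on each DOX- array, its mean level was 4.78-fold higher in DOX+. That is a bound for this probe under the main background correction only. The limma adjusted p was 0.0420. The DOX- values of this probe lie at the floor of the arrays, so their small spread, which enters that p, is not a spread of expression. The call was lost under 10 of 14 alternatives, among them each omission of 1 array except DOX+ replicate 1, and its adjusted p lay between 0.0112 and 0.383. The difference was 1.503 on the log2 scale with normexp background correction, which is under the bound, and 4.01 to 4.80 under the other alternatives. The remaining 2 probes of this region that passed the filter did so only through DOX+, and neither passed the adjusted threshold. They were well above background on 2 and on 1 of the DOX- arrays. The probe with 2 such arrays had overlapping groups, at -3.52 on DOX- replicate 1 and -3.68 on DOX+ replicate 1. The groups of the other did not overlap.

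Prdm1 encodes BLIMP-1, the repressor that ends the B cell programme in plasma cells and that also acts in some epithelia (chr10:44166619-44166678). Its level was -2.01, -1.40 and -1.58 in DOX+ and -0.93, -1.26 and -2.58 in DOX-. The highest and the lowest value were both in DOX-, and all 6 spots were well above background. The difference was -0.07 with a standard error of 0.44 and a limma adjusted p of 0.964. Its sign turned under several omissions of 1 array.

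Irf4 encodes a transcription factor needed to form plasma cells. Its probe at chr13:30858532-30858591 was well above background on DOX+ replicates 2 and 3, at -3.87 and -4.18, and on DOX- replicate 1, at -4.04. The other 3 arrays read -4.95 in DOX+ and -4.85 and -6.84 in DOX-, all not well above background, so the gene was not tested. On its second probe (chr13:30856460-30856519) no array had a spot well above background.

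Xbp1 encodes the transcription factor of the unfolded protein response that expands the secretory apparatus of plasma cells, and it is active in secretory epithelia as well. The probe that stood for the gene (chr11:5425816-5425875) had levels of 5.80, 5.90 and 5.92 in DOX+ and 5.90, 6.06 and 6.28 in DOX-. The spread within each group was small and the groups met at DOX- replicate 1. The difference was -0.20 with a standard error of 0.14, an interval from -0.55 to 0.14 and a limma adjusted p of 0.563. The other 2 probes of the gene, at chr11:5424970-5425029 and chr11:5424869-5424928, had differences of 0.06 and 0.08 with standard errors of 0.18 and 0.16. The 3 probes thus disagreed in sign by amounts near their errors. Whether any of them tells the spliced form from the unspliced form was not examined.

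Pou2af1 encodes the coactivator OBF-1, which joins the octamer factors on immunoglobulin promoters in B cells (chr9:51048108-51048167). Its level was 1.57, 1.79 and 2.30 in DOX+ and 2.71, 2.57 and 2.42 in DOX-. All 6 spots were well above background, the groups did not overlap, and DOX- replicate 3 lay close to the other controls. The mean was 1.89 ± 0.38 (SD, n = 3) in DOX+ and 2.57 ± 0.14 (SD, n = 3) in DOX-. The difference was -0.68 with a standard error of 0.22 and an interval from -1.21 to -0.16, and limma's p was 0.0185 before and 0.295 after adjustment. It lay between -0.89 and -0.52 under 16 alternatives, with limma adjusted p from 0.0774 to 0.724. Its direction was opposite to that of Jchain and Mzb1 on the same arrays.

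Tnfrsf17 encodes BCMA, the receptor through which long-lived plasma cells receive survival signals (chr16:11320045-11320104). It was well above background on DOX+ replicates 2 and 3, at -4.81 and -4.90, and on DOX- replicate 1, at -4.81. DOX+ replicate 1 read -6.10 and DOX- replicates 2 and 3 read -6.89 and -6.93, all not well above background.

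Cd79a encodes a signalling chain of the B cell receptor, which plasma cells largely lose (probe placed by the files across chr7:25684357-25684614). It was well above background on DOX+ replicates 1 and 3, at -4.53 and -4.50, and on DOX- replicate 1, at -4.80. The other arrays read -5.28 in DOX+ and -5.08 and -5.16 in DOX-. The groups overlapped for Tnfrsf17, Cd79a and the first Irf4 probe, and DOX- replicate 1 was the only control on which any of the 3 genes was well above background.

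Pigr encodes the polymeric immunoglobulin receptor, the member made by the epithelium rather than by plasma cells. Its 2 probes are shown because 1 of them is an A and G repeat that the files place on chromosome 19, although RefSeq (GRCm38.p6) has Pigr on chromosome 1. The other 13 of the 14 probes lay on the chromosome that RefSeq gives for their gene. Over all probes named through an accession, 0.331% of 32969 lay on another chromosome than their gene. Both Pigr probes are printed as the files give them, followed by 2 probes of other genes that also hold only A and G, with capitals marking the longest run of the repeat gaa.
Pigr, chr19:5932558-5932617: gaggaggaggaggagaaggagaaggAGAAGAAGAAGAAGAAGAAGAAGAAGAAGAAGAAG
Pigr, chr1:132741106-132741165: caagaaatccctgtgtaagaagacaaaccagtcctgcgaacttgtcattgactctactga
Gcm1, chr7:123731567-123731626: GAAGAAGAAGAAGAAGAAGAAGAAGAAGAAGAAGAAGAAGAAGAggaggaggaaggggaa
BC005624, chromosome 2: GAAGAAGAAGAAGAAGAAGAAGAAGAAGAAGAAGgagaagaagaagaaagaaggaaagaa
The runs are 35 bases long in the chromosome 19 Pigr probe, 44 in the Gcm1 probe and 34 in the BC005624 probe, and the chromosome 1 Pigr probe holds 51.7% A or G with no such run. RefSeq has Gcm1 on chromosome 9.

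The chromosome 1 probe of Pigr had levels of 1.61, 1.33 and 2.52 in DOX+ and 1.95, 1.55 and 1.41 in DOX-. The groups overlapped, with DOX+ replicate 3 the highest array and DOX+ replicate 2 the lowest. The difference was 0.19 with a standard error of 0.33, an interval from -0.62 to 1.00 and a limma adjusted p of 0.839. The chromosome 19 probe, which stood for the gene because its mean was higher, had levels of 6.73, 6.44 and 7.21 in DOX+ and 6.82, 6.88 and 6.72 in DOX-. Again DOX+ replicate 3 was the highest and DOX+ replicate 2 the lowest, and the difference was -0.01 with a standard error of 0.21, an interval from -0.53 to 0.50 and a limma adjusted p of 0.985. Both intervals include 0, and neither extends past a difference of 1.00 on the log2 scale.

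Probes of 60 bases made of A and G alone numbered 15 of 56605. Of these, 14 were well above background on all 6 arrays, and 5, the Pigr probe included, held a gaa run of at least 24 bases. Of the 9 whose gene has a place in RefSeq, 6 were placed by the files on another chromosome. After subtracting each probe's own mean, the Gcm1 probe differed from the chromosome 19 Pigr probe by a root mean square of 0.19 and the BC005624 probe by 0.12. The chromosome 1 Pigr probe differed from it by 0.23. Which RNA the chromosome 19 probe reports was not tested, so the values of the chromosome 1 probe are the ones tied to the gene by its place.

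**Figure D3:**
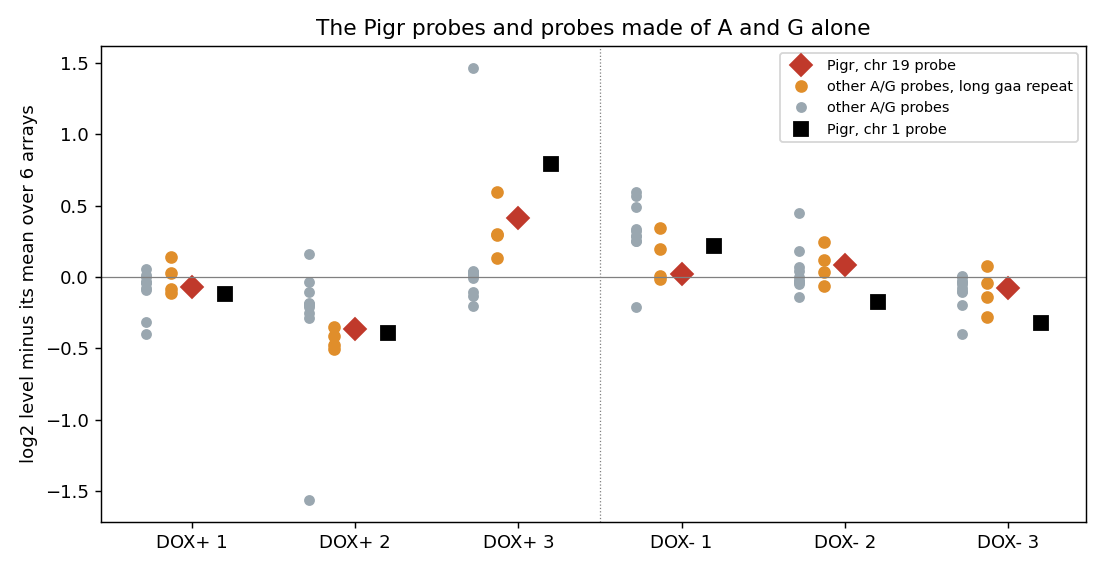
Log2 level minus the probe's own mean over 6 arrays, for the chromosome 19 Pigr probe (red diamonds), the chromosome 1 Pigr probe (black squares), other A and G probes with a gaa run of at least 24 bases (orange) and the remaining A and G probes (grey). The Pigr probes and the orange probes are low on DOX+ replicate 2 and high on DOX+ replicate 3.

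The genes nearest to Pigr in pattern differed with the probe. For the chromosome 19 probe the nearest with a gene symbol were Map3k9 at 0.05 and Cdkn2d at 0.07, and none of the 5 nearest had groups that did not overlap. For the chromosome 1 probe they were Btnl2 at 0.09, the Gcm1 probe printed above at 0.11, Micalcl at 0.12, and Rara and Clec2e at 0.14 each. Rara encodes a retinoic acid receptor, with a difference of 0.08.

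Other genes of plasma cells were described as a list of 22, of which 18 could be tested. The mean was higher in DOX+ for 13 and lower for 5, with a median difference of 0.18 against -0.01 over all tested genes. Without DOX+ replicate 2 it was higher for 10 and lower for 8. None passed limma's adjusted threshold and 4 had an unadjusted p under 0.05, beside 13.3% of all tested genes. In 4 the DOX+ levels lay wholly above the DOX- levels and in none wholly below, beside 10.1% and 10.9% of all tested genes. Eaf2, a partner of the ELL elongation factors, had levels of 6.39, 6.71 and 7.08 in DOX+ and 5.14, 4.74 and 5.65 in DOX-, a difference of 1.55 with a standard error of 0.29 and a limma adjusted p of 0.172. Ly6c2, a surface protein of several blood cells, differed by 1.02, and Cd28, a costimulatory receptor of T cells that plasma cells also carry, by 1.22. Cd38, a surface enzyme of plasma cells and other cells, differed by 0.23. These 4 are the genes of the list whose groups did not overlap. The plasma cell surface gene Sdc1, named after its values were seen, differed by 0.04 with overlapping groups. The 5 lower genes, also with overlapping groups, were Itga4, Slamf7, Txndc5, Ssr4 and Sec11c, the first at -0.38. The 4 genes that could not be tested were Tnfrsf13c, Fkbp11, Cd27 and Ccr10, none of which had a spot well above background. Ccr10 is the receptor that brings IgA plasma cells to epithelia.

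Genes of B cells before the plasma cell stage made a list of 22 with 15 tested, of which DOX+ had the higher mean in 8 and the lower mean in 7. The median difference was 0.32. Without DOX- replicate 3 the mean was higher in 6 and lower in 9. None passed limma's adjusted threshold, 2 had an unadjusted p under 0.05, and 1 had groups that did not overlap, beside 13.3% and 21.0% of all tested genes. That gene was Ebf1, a transcription factor of the B lineage that stromal cells also express, at -1.90 ± 0.30 (SD, n = 3) in DOX+ and -2.54 ± 0.19 (SD, n = 3) in DOX-. Its difference was 0.65 with a standard error of 0.20 and a limma adjusted p of 0.291. The defining B cell gene Ms4a1 was well above background on at most 2 of 3 arrays in either group, and Blk and Cxcr5 on none.

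Signals that act on IgA plasma cells made a list of 19, of which Tnfsf13 had no probe of that name and 9 could be tested. DOX+ had the higher mean in 6 of the 9 and the lower mean in 3. This turned to 4 higher and 5 lower without DOX- replicate 3, and likewise with slide row as a block. Their median difference was 0.09, and none passed limma's adjusted threshold. Only 1 of the 9 had groups that did not overlap, lower in DOX+, beside 21.0% of all tested genes without overlap and 10.9% wholly lower. This was Ccl28, the epithelial chemokine that draws IgA plasma cells through Ccr10. It had levels of 0.03, -0.17 and 0.30 in DOX+ and 0.56, 1.25 and 0.32 in DOX-, a difference of -0.66 with a standard error of 0.27 and a limma adjusted p of 0.373. Next by unadjusted p, all with overlapping groups, came Nos2 with a difference of -2.04, Ccl25 with 0.88 and Tnfsf13b with 0.80. Tnfsf13b encodes the B cell survival factor BAFF and entered the test only through DOX+. Its level was -5.07 on DOX- replicate 3, beside -3.30 and -3.51 on the other controls and -3.33, -2.64 and -3.51 in DOX+. The other 9 genes, among them Il5, Il6, Il10 and Il21, were not well above background on all arrays of either group.

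Targets of XBP1 and genes of protein quality control in the endoplasmic reticulum made a list of 28, all of them tested and well above background on all 6 arrays. The mean was lower in DOX+ for 25 and higher for 3, with a median difference of -0.38. None passed limma's adjusted threshold and 8 had an unadjusted p under 0.05, beside 13.3% of all tested genes. In 11 of the 28 the DOX+ levels lay wholly below the DOX- levels and in 1 wholly above, beside 10.9% and 10.1% of all tested genes. Without DOX- replicate 3, 22 were lower and 6 higher, and with slide row as a block 21 were lower and 7 higher. Pdia6, a disulfide isomerase, had levels of 4.55, 4.44 and 4.31 in DOX+ and 5.06, 4.92 and 5.33 in DOX-, a difference of -0.67 with a standard error of 0.15 and a limma adjusted p of 0.209. Sdf2l1, a cofactor of chaperones in the endoplasmic reticulum, differed by -1.43, the isomerase gene Pdia3 by -0.46 and Dnajb11, a cochaperone of BiP, by -0.64. The 1 gene wholly higher, named after its values were seen, was Ern2, the mucous cell form of the IRE1 sensor, at 3.62, 5.06 and 2.03 in DOX+ and 1.77, 1.24 and 1.63 in DOX-. The direction of this list was thus opposite to that of Jchain and Mzb1, and the epithelium as well as plasma cells expresses these genes.

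Genes that carry the polymeric immunoglobulin receptor through the cell or regulate Pigr made a list of 21, all tested. The mean was lower in DOX+ for 14 and higher for 7, with a median difference of -0.15. None passed limma's adjusted threshold, 2 had an unadjusted p under 0.05, beside 13.3% of all tested genes, and the groups did not overlap in 4, all lower in DOX+, beside 21.0% of all tested genes without overlap and 10.9% wholly lower. Yes1, a Src family kinase, had mean levels of 0.83 ± 0.15 (SD, n = 3) in DOX+ and 1.48 ± 0.44 (SD, n = 3) in DOX-, a difference of -0.65 with a limma adjusted p of 0.338. Ifngr1, a chain of the interferon gamma receptor, differed by -0.59, and Tnfrsf1a and the motor gene Myo5b by -0.19 each.

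**Figure D4:**
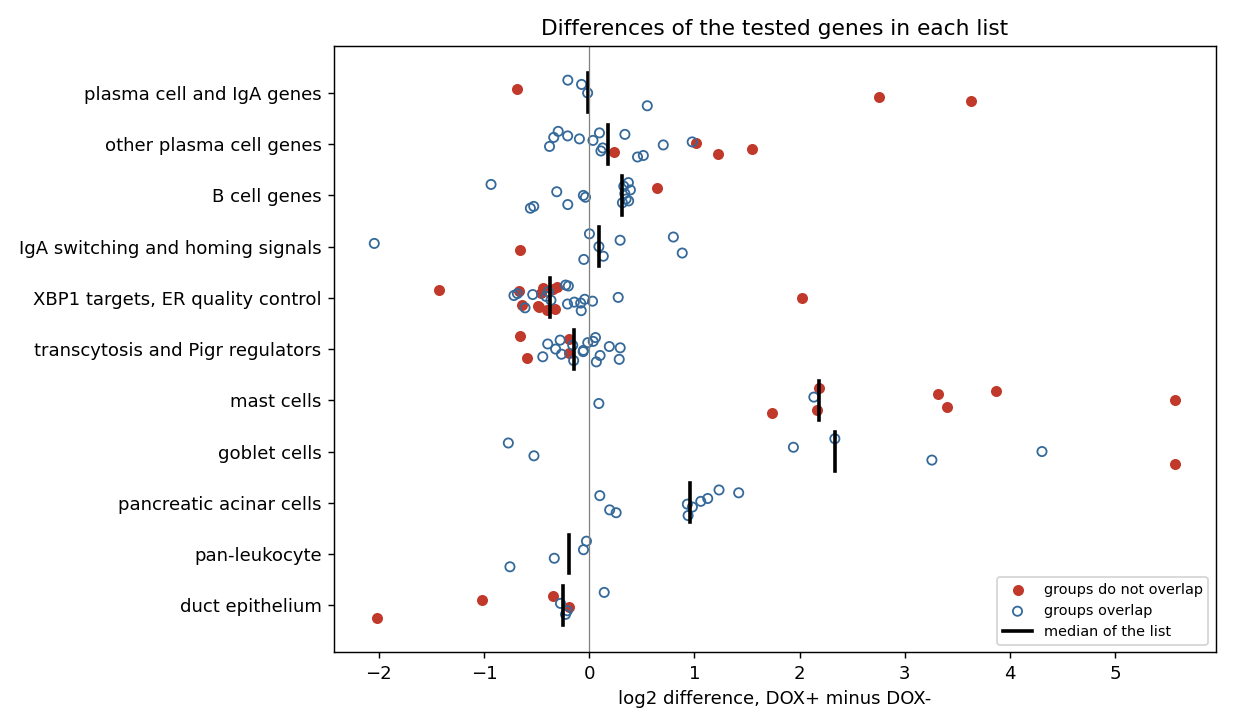
Log2 difference, DOX+ minus DOX-, of each tested gene in the plasma cell and IgA genes, 5 related gene lists and 5 lists of cell type markers. Filled red points are genes whose groups did not overlap, open blue points are genes whose groups overlapped, and the black line is the median of the list. The median is -0.38 for the XBP1 targets and 2.18 for the mast cell markers, and no gene plotted passed the adjusted threshold.

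Markers of other cell types moved on the same arrays, and their part in the results above was not tested. All 9 tested mast cell markers had a higher mean in DOX+, 7 of them with groups that did not overlap. Fcer1a and Ms4a2, both among those 7, entered the test only through DOX+, so the counts are a description only. The mean level of the 9 was -1.03, 0.06 and 1.91 in DOX+ and -1.64, -2.59 and -2.98 in DOX-. Goblet cell markers had a mean level of 0.67, 3.16 and 3.45 in DOX+ and -0.07, 0.19 and 0.25 in DOX-, with 5 of 7 higher in DOX+. Of those 5, Muc2 and Zg16 likewise entered the test only through DOX+. The means of both lists shared with Jchain and Mzb1 the order of the DOX+ arrays, lowest on replicate 1 and highest on replicate 3. Pou2af1, which was lower in DOX+, had that order as well. Gene by gene, the goblet cell markers Muc2, Tff3 and Fcgbp had it, and Agr2, Spdef, Clca1 and Zg16 did not. All 7 endothelial markers were higher in DOX+, 4 of them without overlap. Duct epithelium markers were lower in DOX+ for 7 of 8, with 4 wholly lower. Over all tested genes 10.1% were wholly higher and 10.9% wholly lower. The mean level of T cell markers was -1.50, -1.10 and -1.38 in DOX+ and -1.18, -1.36 and -2.01 in DOX-, and that of macrophage and dendritic cell markers was 1.17, 0.81 and 0.94 in DOX+ and 1.74, 1.48 and 0.19 in DOX-. Both were lowest on DOX- replicate 3, the array on which Jchain, Mzb1, Prdm1 and the first Irf4 probe were lowest. Tnfrsf17 was lowest there too, at -6.93 beside -6.89 on DOX- replicate 2, with neither spot well above background. The second Irf4 probe, never well above background, was lowest on DOX- replicate 2. Pancreatic acinar markers were highest on DOX- replicate 3 and lowest on DOX- replicate 1, at 2.81, 0.87 and 1.36 in DOX+ and -2.62, 1.61 and 3.57 in DOX-.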

How the data were processed

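Each of the 6 total RNA samples was hybridised, with Cy3 label, to its own Agilent array. The deposited intensity of each spot came from Agilent's Feature Extraction software (10.7.1.1 per the file headers, 9.5.1.1 per the submitters' processing notes), background-subtracted and detrended within each array. The authors' deposited table of processed intensity served as an alternative; the medians of its columns were all 57.79. Each array held 59305 non-control spots, none saturated, and the 50 to 64 outlier spots per array were left out. The deposited intensity was turned into log2, the 75th percentile of each array was subtracted, and spots of a probe were averaged. A probe entered the test where 1 group or both had it well above background on all 3 arrays, and the probe with the highest mean stood for a gene. The test was limma's (version 3.58.1, R 4.3.3), lmFit with eBayes on group (two-sided, Benjamini-Hochberg over 20737 genes, threshold 0.05), which was tested on simulated data. Probes were named through RefSeq (GRCm38.p6). Coordinates are those of the files (mm9), and the exon a probe lies in was not analysed here.

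The 10 genes and the related lists were chosen with earlier results of these data known. All 10 are described. From each related list up to 4 tested genes are named, those whose groups do not overlap first and then by unadjusted p, together with genes too dim to test. Further genes are named where they limit a statement about their list. Alternatives were other normalisations, background corrections, filters, blocks, array weights and the omission of each array.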

Additional observations from a re-analysis of the deposited data

How the results depend on the processing

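No alternative brought any of the 10 genes past the adjusted threshold. Over all genes, 8 passed it in limma, against 2 with quantile normalisation, 2 with the authors' processed values, 1 with no filter on dim probes, 5 with only probes well above background on all 6 arrays, and 280 with array weights, where DOX- replicate 2 had a weight of 4.04. With slide row as a block limma called 0 genes, with 1409 at an unadjusted p under 0.05. Omitting 1 array gave 0 to 30 calls: 30 without DOX+ replicate 1, 18 and 21 without DOX+ replicates 2 and 3, 0 without DOX- replicate 2 and 19 without DOX- replicate 3. Of the 10 genes, the number whose groups did not overlap was 3, against 1 with probes well above background on all 6 arrays, where Jchain and Mzb1 left the test. Omitting 1 array gave 3 to 5, with 5 without DOX+ replicate 2 and 5 without DOX- replicate 3. Of 117 alternative values of the 7 tested genes, 10 turned direction. These were all of Pigr, which stood at -0.01, and Prdm1, at -0.07. Pigr was 0.11 with quantile normalisation and with the authors' values, 0.087 with the mean of its probes, 0.19 with its chromosome 1 probe (an alternative chosen after seeing the data), and above 0 without DOX+ replicate 1, DOX+ replicate 2 or DOX- replicate 2, with a range of -0.22 to 0.16 over the omissions of 1 array. Prdm1 turned without DOX+ replicate 1, DOX- replicate 1 or DOX- replicate 2, with a range of -0.57 to 0.26. The causes were not tested. Of 816 alternative counts for the lists, 61 moved by over 1.5 times. Arrays with the same replicate number did not deviate together (correlations across genes of -0.0867, -0.131 and -0.0201). With 3 arrays per group this cannot exclude that the numbers pair the samples. The replicate block gave 0 calls over all genes in limma, with 2258 at an unadjusted p under 0.05. The alternatives for the constant gamma 2C probe were also added after seeing the data. With 3 arrays per group and DOX- replicate 3 near background for Jchain and Mzb1, the size of those differences is poorly fixed.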
